A study of Mus musculus with 8 samples.

Results

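The genes described are Hoxa5, Hoxa7, Hoxa9 and Hoxa10 of the Hoxa cluster, Hoxb2, Hoxb3, Hoxb4, Hoxb5 and Hoxb6 of the Hoxb cluster, and Meis1. They were taken as every non-control probe that carries one of these 10 symbols, which gave 12 of 55681 probes. All 10 genes passed the filter, which kept probes that the scanner software marked as well above background on 2 or more of 8 arrays and left 23231 features for testing. RNA was measured in sorted bone marrow cells of mice aged 6 weeks, of mixed B6/CBA and other background, in 4 groups of 2 arrays. KSL cells (Kit positive, Sca-1 positive, lineage negative) are a stem and progenitor fraction, and Gr cells (Gr-1+/Mac-1+) are a granulocytic fraction. The groups are KSL cells of Vav-Etv2 mice, KSL cells of control mice, Gr cells of Vav-Etv2 mice and Gr cells of control mice. Vav-Etv2 mice carry an Etv2 transgene that is turned on by a Vav-iCre transgene, so that Etv2, an ETS transcription factor of early blood and vessel precursors, is expressed wherever the Vav promoter is or was active, mainly in blood cells. The controls are labelled only as control, and the labels do not say which of the transgenes they carry. Nor do they say whether 2 replicates came from separate mice or from pools, so the p-values reflect how far these samples spread, which may be technical.

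Hox genes encode homeodomain transcription factors and lie in clusters in which the order of the genes follows the order of their expression along the body axis. In blood, genes of the Hoxa and Hoxb clusters are expressed mainly in stem and progenitor cells and are silenced as cells mature. HOX proteins bind DNA together with proteins of the TALE class, among them PBX and MEIS, and Hoxa9 with Meis1 is a well known pair in stem cell self-renewal and in acute myeloid leukaemia.

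Each level below is the log2 of a probe's signal minus the 75th percentile of its own array, so 0 marks that percentile. Levels are compared between arrays for 1 probe and never between probes. Etv2 itself read 0.19 and -1.24 in KSL Vav-Etv2 replicates 1 and 2 and -4.37 and -4.73 in the KSL controls. In Gr cells it read -0.55 and -1.30 with the transgene, -4.48 in Gr control replicate 1 and -0.55 in the array labelled Gr control replicate 2. The last of these goes against its label, and the Gr transgene results are therefore given with and without that array. The 75th percentile of an array lay at 136 to 301 signal units, 0 spots were saturated, and 47.7% to 55.5% of an array's probes had a signal marked as well above background. KSL samples occupied row 1 of the slide and Gr samples row 2, so cell type and slide row cannot be told apart. Xist was high on all KSL arrays and on replicate 1 of both Gr groups, while replicate 2 of both Gr groups had Ddx3y instead, so the sexes were split by replicate number in Gr cells only. Of the genes behind the sort, Kit stood between 3.45 and 5.15 in KSL cells and between 1.41 and 2.04 in Gr cells. Ly6a, which encodes Sca-1, ran the other way, at 2.25 to 3.65 in KSL cells and 4.47 to 6.33 in Gr cells. Itgam, which encodes Mac-1, read 4.54 to 5.19 in KSL cells and 5.95 to 7.20 in Gr cells, and the Gr-1 gene Ly6g was not analysed here.

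In KSL cells, all 10 genes had a lower mean in Vav-Etv2 than in control mice, as 49.7% of all features did. None of the 10 passed the test. Hoxb5, Hoxb6, Hoxa10, Hoxb2 and Hoxb3 were lower by more than 1 on the log2 scale. Normexp background correction, with an offset of 50 signal units added, was also run in place of the processed signal. It gave -0.99 for Hoxb5, -0.59 for Hoxb6, -0.98 for Hoxa10, -0.77 for Hoxb2 and -0.61 for Hoxb3. The offset by itself shrinks differences of dim probes, and these probes averaged 49.2 to 142 processed units in control KSL cells. The smaller sizes therefore cannot show whether the differences pass 1. On the processed signal, Hoxa7, Hoxa5, Hoxa9, Hoxb4 and Meis1 differed by 0.15 to 0.69. Across the 23231 features, 3 (0.0129%) were called lower and 1 (0.00430%) higher at a limma adjusted p under 0.05, against 0 of the 10 genes. The median difference of the 10 genes was -1.24, beside 0.00 over all features. For 7 of the 10, both Vav-Etv2 arrays lay below both controls, which 25.5% of all features also did, and for 0 of the 10 both lay above, as 26.1% of features did. The difference was below -1 for 5 of the 10 and for 7.05% of features. An unadjusted p under 0.05 was found for 5 of the 10 genes and for 1724 of all features. Hoxb5 and Hoxb6 are among the 10, the 7 and the 5 of these counts. Both passed the filter only through arrays labelled control, so their place in the counts is not independent of the filter. With KSL Vav-Etv2 replicate 1 left out, 7 genes lay below both controls, as did 37.5% of features. With replicate 2 left out, 10 genes did, as did 40.6% of features.

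Hoxb5, a middle gene of the Hoxb cluster that is used as a marker of long-term stem cells in mice, had the largest difference. It read -6.01 and -4.84 in Vav-Etv2 KSL cells, neither well above background, and -1.71 and -1.75 in control KSL cells, both well above background. Hoxb5 was thus at least 6.45-fold lower in the Vav-Etv2 arrays (limma adjusted p = 0.146, fitted log2 difference -3.70, SE 0.57). The gene passed the filter only through the 2 KSL controls, so this pair of groups had to differ once the gene was kept.

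Hoxb6, its neighbour, which is expressed in myeloid progenitors, was likewise marked only in controls. It read -4.43 and -4.72 in Vav-Etv2 KSL cells, neither well above background, and -2.06 and -2.36 in control KSL cells. The Vav-Etv2 arrays were at least 4.62-fold lower (limma adjusted p = 0.204, difference -2.36 with an SE of 0.44) and did not overlap the controls. Hoxb6 passed the filter only through arrays labelled control, both KSL controls and Gr control replicate 2. The difference is therefore not independent of the filter.

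Hoxa10, a posterior Hoxa gene that acts in progenitor expansion and myeloid differentiation, stayed detected in every KSL array. It read -3.57 and -2.03 in Vav-Etv2 KSL cells and -0.76 and -0.66 in control KSL cells. The 2 Vav-Etv2 arrays differed from each other more than the controls did, and the mean was 4.25-fold lower (limma adjusted p = 0.475, difference -2.09 with an SE of 0.64). Without Vav-Etv2 replicate 1 the Hoxa10 difference was -1.32, and without replicate 2 it was -2.86.

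Hoxb2 and Hoxb3 are anterior Hoxb genes, and Hoxb3 is known in mice to act with Hoxb4 in stem cell regeneration. Hoxb2 read -3.76 and -3.13 in Vav-Etv2 KSL cells and -1.64 and -1.38 in controls (limma adjusted p = 0.523, difference -1.93 with an SE of 0.62). Hoxb3 read -4.27 and -3.36 in Vav-Etv2 KSL cells and -2.10 and -1.95 in controls (limma adjusted p = 0.414, difference -1.79 with an SE of 0.50). For both genes the groups did not overlap. The other Hoxb3 probe gave a similar size, -4.58 (not well above background) and -3.89 against -2.51 and -2.48, a difference of -1.73. That probe shares at least 20 bases with a probe listed under another transcript name.

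Hoxa9, which drives progenitor expansion and is the best studied Hox gene in leukaemia, read 0.03 and -0.06 in Vav-Etv2 KSL cells and 0.73 and 0.62 in control KSL cells. The groups did not overlap, and the difference was small (limma adjusted p = 0.876, difference -0.69 with an SE of 0.40). A second Hoxa9 probe showed almost none of it, with 0.09 and -0.25 in Vav-Etv2 cells and 0.02 and -0.12 in controls (difference -0.03). The 2 probes lie at mm9 chr6:52175595-52175654 and chr6:52174165-52174224 on the minus strand.

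Meis1, the TALE cofactor, read 4.65 and 4.62 in Vav-Etv2 KSL cells and 4.91 and 5.10 in control KSL cells (limma adjusted p = 1.00, difference -0.37 with an SE of 0.50). Its 95% interval was -1.55 to 0.82. Hoxb4, which expands stem cells when overexpressed, read 0.79 and 1.46 in Vav-Etv2 KSL cells and 1.30 and 1.51 in controls (log2 difference -0.28, 95% interval -1.23 to 0.67). Its groups overlapped, as did those of Hoxa7 and Hoxa5.

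Hoxa7, which is expressed in early progenitors, read 3.24 and 3.63 in Vav-Etv2 KSL cells and 3.47 and 3.71 in controls (log2 difference -0.15, 95% interval -1.30 to 1.00). Hoxa5, which in human progenitors favours myeloid over erythroid fate when overexpressed, read -1.62 and -0.44 in Vav-Etv2 KSL cells and -0.72 and -0.25 in controls (log2 difference -0.55, 95% interval -1.94 to 0.84). Without Vav-Etv2 replicate 1 the differences of Hoxa5, Hoxa7 and Hoxb4 were 0.04, 0.04 and 0.05, so they were negative with that array and not without it.

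**Figure D1:**
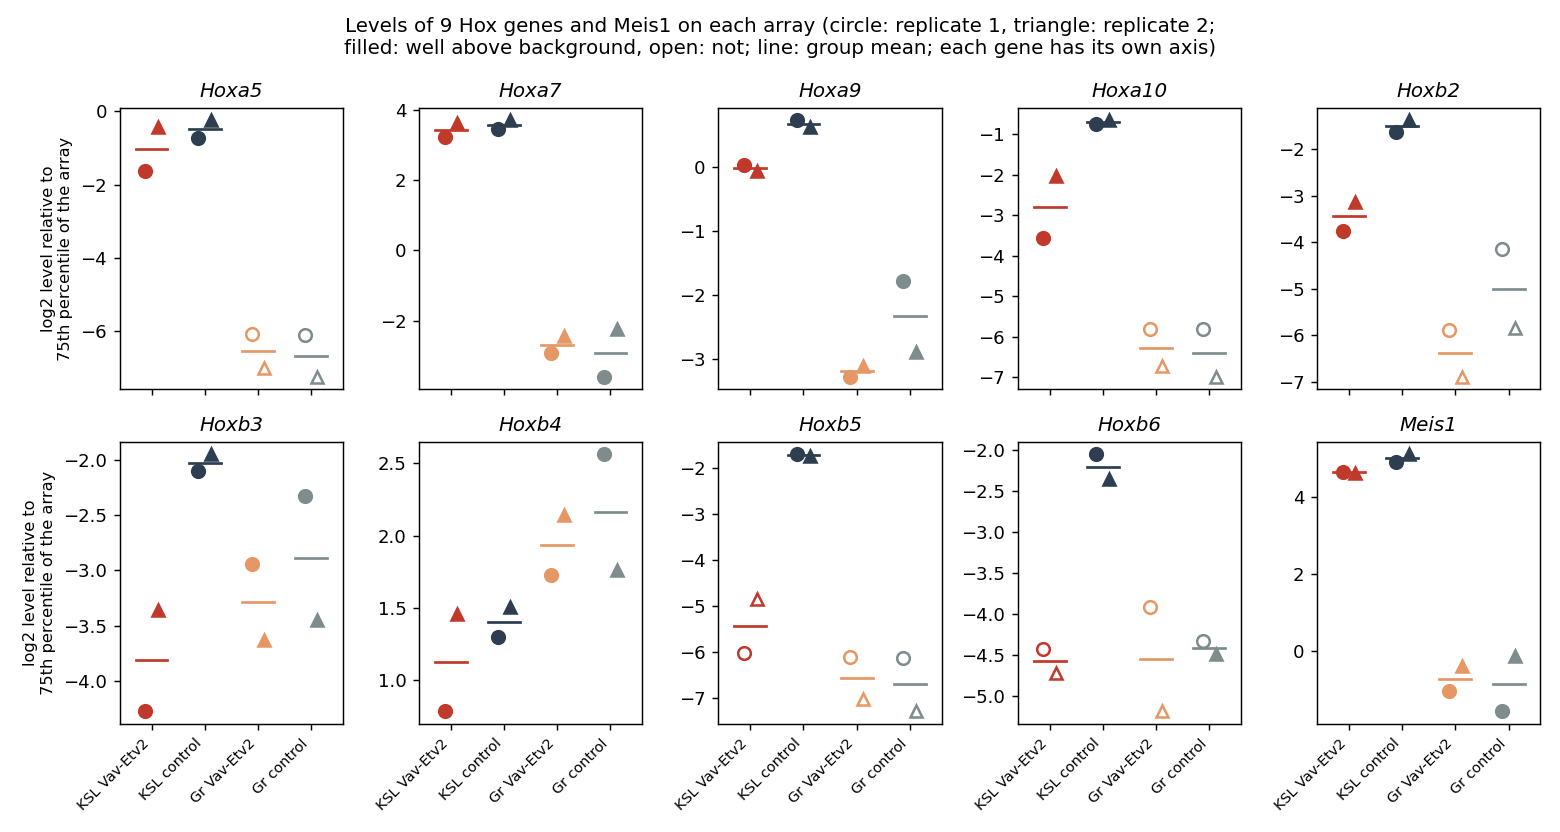
Log2 level relative to the array's own 75th percentile (y axis, a separate scale for each gene) on each of the 8 arrays, by group (x axis). Circles are replicate 1, triangles replicate 2, filled symbols are well above background and lines are group means. Hoxb5 and Hoxb6 are filled in control KSL cells and open in Vav-Etv2 KSL cells, Hoxa7 and Meis1 separate KSL from Gr cells, and Hoxb4 is present in all 4 groups.

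**Figure D2:**
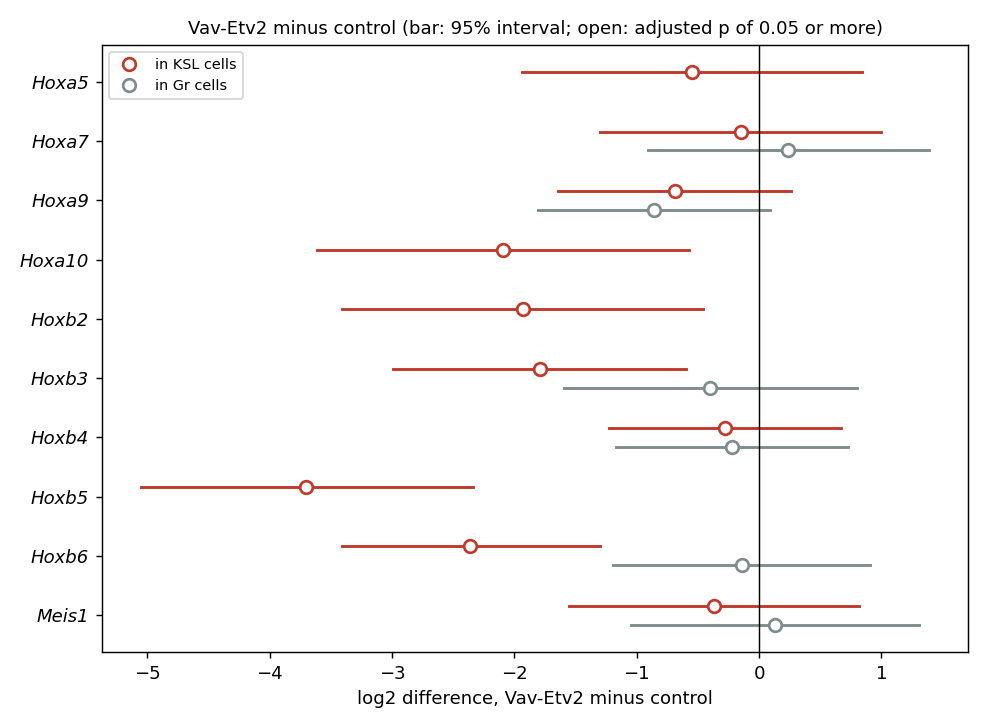
Log2 difference, Vav-Etv2 minus control (x axis), with limma's 95% interval, for each gene in KSL cells and in Gr cells. Genes with no array well above background in Gr cells have no Gr point. All 10 KSL points lie left of 0, from -3.70 for Hoxb5 to -0.15 for Hoxa7, and no point is filled because none passed the test. Hoxb5 and Hoxb6 passed the filter only through arrays labelled control.

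Other RNAs of the KSL fraction differed between the same arrays. Among the sort and stem cell genes, Kit read 3.45 and 4.32 in Vav-Etv2 and 5.15 and 5.15 in control KSL cells, and Ly6a read 2.25 and 3.09 against 3.65 and 3.59. Procr, a surface marker of stem cells, read -0.09 and 0.29 against 2.10 and 2.35, while Cd34 read 7.31 and 7.13 against 7.25 and 7.39. The signals of the 6 B lineage markers, each relative to the array's 75th percentile, summed to 64.9 and 90.6 in Vav-Etv2 and to 21.7 and 22.0 in control KSL cells. Of these, Pax5 was well above background on both Vav-Etv2 and neither control KSL array. The 8 granulocyte markers on the array summed to 122 and 1475 in Vav-Etv2 and to 1460 and 1371 in control KSL cells, so Vav-Etv2 replicate 1 stood apart. The 2 plasma cell markers summed to 3.01 and 18.4 against 69.1 and 69.6. The 4 endothelial markers summed to 37.7 and 10.9 against 14.2 and 9.71. Of these, Cdh5, Flt1 and Pecam1 were higher on both Vav-Etv2 arrays without overlap, as were 26.1% of all features. Kdr overlapped, with a difference of -0.15. Cdh5 read 3.53 and -1.60 in Vav-Etv2 and -3.74 (not well above background) and -3.65 in control KSL cells. Flt1 read 3.77 and -1.29 against -2.98 and -2.71, and Pecam1 differed by 0.90. The 5 monocyte and macrophage markers summed to 40.4 and 44.6 in Vav-Etv2 and to 21.2 and 22.8 in control KSL cells. The 4 T and NK cell markers summed to 2.74 and 2.56 against 4.82 and 4.57, and the 4 erythroid markers to 17.9 and 24.6 against 41.9 and 38.9. Lower without overlap, as were 25.5% of all features, were 4 of 4 T and NK and 3 of 4 erythroid markers. So were 2 of 2 plasma cell, 2 of 8 granulocyte and 4 of 7 sort and stem cell genes. The B lineage, monocyte and macrophage, and endothelial lists had 0 such genes. Of the markers in these lists 0 were called in KSL cells by limma. Their part in the Hox differences was not tested. In RNA from a sorted population, fewer cells of a type and less RNA per cell cannot be told apart.

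Of 12 other Hoxa and Hoxb genes on the array 6 passed the filter, and the other 6 were not tested. Of those tested 0 were called in either direction in KSL cells, and each had a negative difference. Hoxb8, which blocks myeloid differentiation when overexpressed, read -5.95 and -4.55 in Vav-Etv2 KSL cells, neither well above background, and -1.98 and -2.27 in controls, at least 4.91-fold lower (limma adjusted p = 0.242). Like Hoxb5, it passed the filter only through the 2 KSL controls, so these groups had to differ. Hoxa3, an anterior Hoxa gene, read -0.02 and 0.67 against 0.59 and 0.79, a difference of -0.37 with overlapping groups. In cluster order, the tested Hoxb genes other than Hoxb4 lay at -1.79 or below. The tested Hoxa genes other than Hoxa10 lay at -1.10 (Hoxa4) or above. Hoxb5, Hoxb6 and Hoxb8 passed the filter only through arrays labelled control, so their low values are not independent of it. With normexp and its offset, Hoxb2, Hoxb3, Hoxb5 and Hoxb6 lay at -0.99 to -0.59, and Hoxa9, Hoxa5 and Hoxa7 at -0.58 to -0.13. Of 18 Hoxc and Hoxd genes only 2 passed the filter, and Hoxc6 read -6.05 and -6.65 in Vav-Etv2 KSL cells, neither well above background, and -3.30 and -3.71 in controls (limma adjusted p = 0.197). Hoxc6 too was kept only through those 2 controls.

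**Figure D3:**
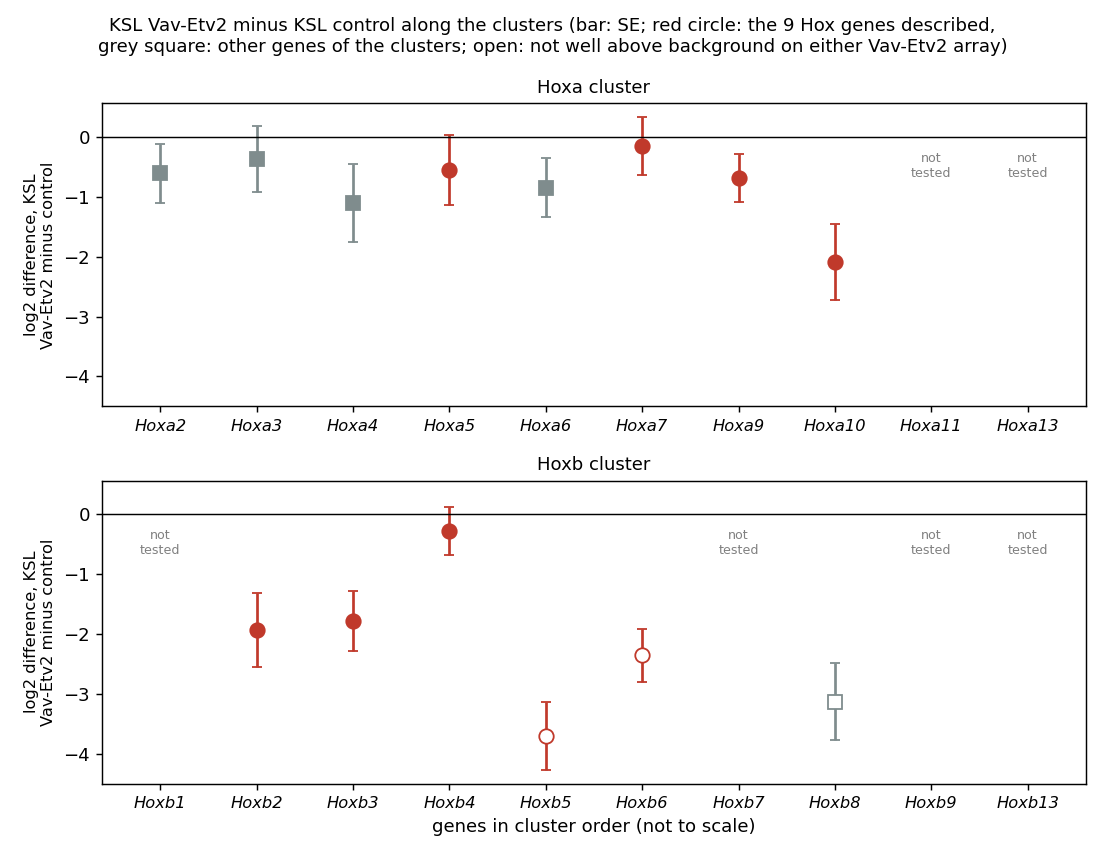
Log2 difference, KSL Vav-Etv2 minus KSL control (y axis), with limma's SE, for genes of the Hoxa and Hoxb clusters in their order along the chromosome (x axis, not to scale). Hoxb4, at -0.28, stands above its neighbours Hoxb3 (-1.79) and Hoxb5 (-3.70), and open symbols mark genes well above background on neither Vav-Etv2 array.

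Probes of noncoding or unnamed transcripts in the clusters, singled out after their values were seen, add positions between the genes. A transcript on the opposite strand, ENSMUST00000150698, with its probe at mm9 chr11:96152394-96152453, read -4.57 and -2.46 in Vav-Etv2 and -0.76 and -0.59 in control KSL cells (limma adjusted p = 0.386 with each probe tested by itself, difference -2.84 with an SE of 0.72). Between Hoxb5 and Hoxb4, 3 lincRNA probes of 1 region gave KSL differences of -0.94, -1.61 and -2.02, and another probe, of a region at mm9 chr11:96174257-96174316, gave 0.56. The probe at -2.02, at mm9 chr11:96175970-96176029, read -3.04 and -2.36 in Vav-Etv2 and -0.77 and -0.58 in control KSL cells (limma adjusted p = 0.256). Of noncoding transcripts of the Hoxa cluster, Hoxaas3 differed by -0.16. Hoxa11os read -3.83 and -3.62 in Vav-Etv2 and -2.50 and -2.70 in control KSL cells, without overlap (limma adjusted p = 0.384, difference -1.12 with an SE of 0.28).

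In Gr cells the same comparison gave 0 called genes among the 10, beside 1 feature called higher and 1 lower (0.00430% each). An unadjusted p under 0.05 was found in Gr cells for 0 of the 10 genes and for 296 features. Hoxa5, Hoxa10, Hoxb2 and Hoxb5 were not well above background on any Gr array, and no fold is given for them. Hoxa9 read -3.27 and -3.11 in Vav-Etv2 Gr cells, -1.77 in Gr control replicate 1 and -2.89 in the array labelled Gr control replicate 2 (limma adjusted p = 1.00, difference -0.86 with an SE of 0.40). Both Vav-Etv2 arrays lay below both controls on this Hoxa9 probe, as for 5.79% of features. Its difference was -1.42 without the array labelled Gr control replicate 2, and -0.30 without Gr control replicate 1. The second Hoxa9 probe read -3.25 and -2.83 in Vav-Etv2 Gr cells and -2.39 and -2.94 in those labelled control. There the groups overlapped, with a difference of -0.37.

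Meis1 read -1.05 and -0.38 in Vav-Etv2 Gr cells and -1.55 and -0.14 in the arrays labelled Gr control (log2 difference 0.13). Hoxa7 read -2.92 and -2.45 in Vav-Etv2 Gr cells and -3.60 and -2.24 in those labelled control (log2 difference 0.24). Hoxb4 read 1.73 and 2.14 in Vav-Etv2 Gr cells and 2.56 and 1.76 in those labelled control (log2 difference -0.22). Within each pair of like replicate number, which in Gr cells is also a pair of like sex, Meis1 and Hoxa7 were higher in Vav-Etv2 in replicate 1 and lower in replicate 2. Without the array labelled Gr control replicate 2, Hoxa7, Meis1, Hoxb3 and Hoxb4 differed by 0.92, 0.83, -0.95 and -0.62, and again 0 genes were called.

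Whether the transgene's difference was unlike in KSL and Gr cells was tested as the KSL difference minus the Gr difference. No gene of the 10 was called, beside 1 of 23231 features (0.00430% called lower, 0 higher), and 3 of the 10, Hoxa10, Hoxb5 and Hoxb6, had an unadjusted p under 0.05 in limma, as did 906 features. Hoxb5 gave the lowest adjusted p (interaction -3.83, SE 0.80, limma adjusted p = 0.959), with Gr cells below background. Hoxb6 gave -2.22 (SE 0.63, limma adjusted p = 1.00) and Hoxb3 gave -1.39 (SE 0.71, limma adjusted p = 1.00). Hoxb5 and Hoxb6 had passed the filter only through arrays labelled control, so their interactions too are not independent of it. Hoxb4 and Hoxa9, at -0.06 and 0.17, had the smallest interactions, with 95% intervals of -1.40 to 1.29 and -1.18 to 1.52. Without the array labelled Gr control replicate 2, the interaction was 0.34 for Hoxb4, 0.73 for Hoxa9, -2.14 for Hoxb6 and -0.84 for Hoxb3.

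Between the cell types most of the 10 genes were higher in KSL cells. In Vav-Etv2 mice 6 of the 10 were called higher in KSL than in Gr cells, where 10.5% of features were, and 0 were called lower, where 13.8% were. In control mice 8 of the 10 were called higher, where 16.3% of features were, and 0 lower, where 18.5% were. Of these calls, Hoxa5, Hoxa10 and Hoxb2 in both genotypes and Hoxb5 in control mice belong to genes with no Gr array well above background, which passed the filter only through KSL arrays and so had to be higher there. Both KSL arrays lay above both Gr arrays for 7 of the 10 genes in Vav-Etv2 mice (32.2% of features) and for 9 in control mice (34.9% of features). Both lay below for 1 gene, Hoxb4, in Vav-Etv2 mice (37.6% of features) and in control mice (40.4% of features). The median difference was 3.06 in Vav-Etv2 mice and 4.23 in control mice, beside -0.10 and -0.13 over all features. The Vav-Etv2 comparison and the control comparison share no arrays with each other, but each shares its arrays with the transgene comparisons above, so the values are set side by side only.

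Hoxa7 and Meis1 had the largest measured cell type differences among genes detected in all groups. Hoxa7 was 69.5-fold higher in KSL than in Gr cells of Vav-Etv2 mice (limma adjusted p = 0.00132, difference 6.12 with an SE of 0.48). In control mice it was 91.0-fold higher (6.51, SE 0.48, limma adjusted p = 8.57e-04). Meis1 was 40.8-fold higher in Vav-Etv2 mice (5.35, SE 0.50, limma adjusted p = 0.00188) and 57.4-fold higher in control mice (5.84, limma adjusted p = 0.00113). The 4 KSL arrays lay above the 4 Gr arrays for both genes.

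Hoxa9 was 9.02-fold higher in KSL cells of Vav-Etv2 mice (limma adjusted p = 0.00406) and 8.02-fold higher in control mice (limma adjusted p = 0.00358). Both Hoxa9 probes were called. For Hoxa5 the KSL level exceeded the Gr level at least 9.62-fold in Vav-Etv2 mice (limma adjusted p = 0.00266) and at least 18.5-fold in control mice (limma adjusted p = 0.00149), since no Gr array was well above background. For Hoxa10 the KSL level exceeded the Gr level at least 2.83-fold in Vav-Etv2 mice (limma adjusted p = 0.0114) and at least 15.8-fold in control mice (limma adjusted p = 0.00222). For Hoxb2 the KSL level exceeded the Gr level at least 1.81-fold in Vav-Etv2 mice (limma adjusted p = 0.0176) and at least 9.06-fold in control mice (limma adjusted p = 0.00832). The Hoxa10 and Hoxb2 calls in Vav-Etv2 mice were lost when low signals were raised to the array's lowest detected signal (limma adjusted p = 0.163 and 0.333).

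Hoxb5 and Hoxb6 were called in control mice. In control mice Hoxb5 exceeded its Gr level at least 7.79-fold in KSL cells (limma adjusted p = 0.00234), and Hoxb6 differed by 2.20 (SE 0.44, limma adjusted p = 0.0123). Of the Gr controls, Hoxb6 was well above background only on the array labelled Gr control replicate 2, and with low signals raised to the lowest detected signal the difference was 1.93. With normexp background correction and its offset of 50 units, which shrinks differences of dim probes, both calls were lost. Hoxb5 lay at 1.08 (limma adjusted p = 0.0524) and Hoxb6 at 0.53 (limma adjusted p = 0.307). Leaving out KSL control replicate 1 or 2 also ended the Hoxb6 call (limma adjusted p = 0.0831 and 0.0628). In Vav-Etv2 mice neither gene was well above background in either cell type, so no fold is given there. The difference between the 2 comparisons is the interaction above, which was not called for either gene.

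Hoxb4 and Hoxb3 were not called between the cell types. Hoxb4 was detected on all 8 arrays and read lower in KSL than in Gr cells, by -0.82 in Vav-Etv2 mice (95% interval -1.77 to 0.13, limma adjusted p = 0.169) and -0.76 in control mice (95% interval -1.71 to 0.19, limma adjusted p = 0.177). It was the only one of the 10 whose group mean was highest in Gr control cells rather than in KSL control cells. Hoxb3 differed by -0.53 in Vav-Etv2 mice (limma adjusted p = 0.452) and by 0.86 in control mice (limma adjusted p = 0.216). Its other probe differed by 1.43 in Vav-Etv2 mice (limma adjusted p = 0.0794) and by 2.45 in control mice (limma adjusted p = 0.0127). The 2 Hoxb3 probes thus disagree in Gr cells, where that other probe was never well above background. It passed the filter only through KSL arrays, so its higher KSL readings are not independent of the filter. All KSL arrays had Xist. Against the Xist-bearing Gr arrays alone, 5 genes were called in Vav-Etv2 mice, Hoxb2 being lost (2.44, limma adjusted p = 0.0618), and 8 in control mice.

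**Figure D4:**
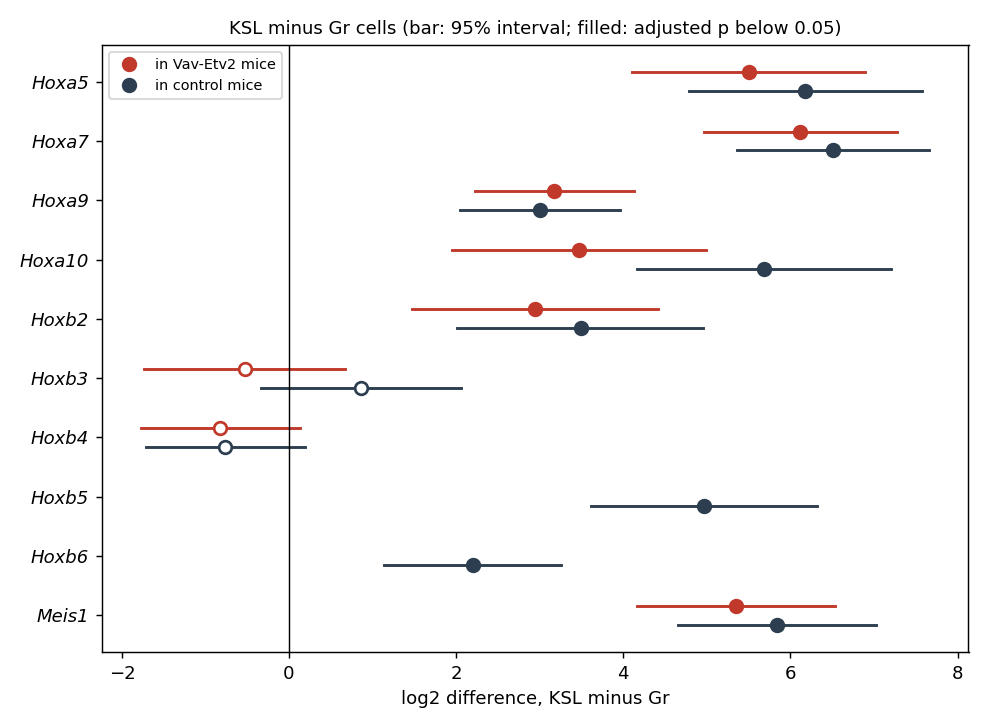
Log2 difference, KSL minus Gr (x axis), with limma's 95% interval, for each gene in Vav-Etv2 mice and in control mice. Filled points passed the test: 6 in Vav-Etv2 mice and 8 in control mice. Hoxb3 and Hoxb4 lie near 0, and Hoxb5 and Hoxb6 have no Vav-Etv2 point because neither cell type was above background there.

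Genes that work with these factors were read from lists of TALE and PBX partners, regulators of Hox loci, and reported Hoxa9 and Meis1 targets. In the transgene comparisons 0 genes of these lists were called in KSL or in Gr cells. The largest KSL differences were those of Hlf, a target and stem cell factor, with 0.45 and 2.64 in Vav-Etv2 and 4.63 and 4.53 in control KSL cells (limma adjusted p = 0.319, difference -3.03 with an SE of 0.73), of Mllt3, a reader of acetylated histones at Hox loci (-1.02), and of Pbx4, a partner (-0.86). The medians in KSL cells were -0.22 for 9 partners, 0.13 for 24 regulators and -0.16 for 17 targets, beside 0.00 over all features. In Gr cells the largest differences reported here were those of Tgif2 (-0.97), Cbx2 (1.00), Camk2d (1.03) and Hoxc12 (-0.19), each with a limma adjusted p of 1.00.

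Between the cell types, 8 of 17 targets were called higher in KSL cells and 2 lower in Vav-Etv2 mice, where 10.5% and 13.8% of all features were. In control mice 9 were higher and 4 lower, where 16.3% and 18.5% of features were. Called higher in both were Cd34 (5.90 in Vav-Etv2 and 6.31 in control mice), Flt3, a cytokine receptor of progenitors (5.94 and 6.81), Sox4 (5.27 and 5.85), Msi2 (4.16 and 5.33), Bcl2, Cdk6, Lmo2 and Myb. Hlf was called higher in control mice (5.06). Id2 and Hif1a were called lower in KSL cells in both, and Eya1 and Igf1r in control mice. Cd34 and Flt3 were also in the stem cell marker list. Among partners, Pbx4 (3.47 and 4.09) and Tgif1 (1.62 and 1.84) were called higher and Pknox2 (-4.82 and -4.73) lower in both, Tgif2 higher in Vav-Etv2 mice and Pbx2 lower in control mice. Among regulators, the polycomb gene Cbx2 was higher (4.32 and 4.92) and the demethylase gene Kdm6b lower (-2.23 and -1.73) in both. Bmi1 was called higher in Vav-Etv2 mice and Mllt3 in control mice. Hoxa2 and Hoxa3 were called higher in both, and Hoxa6, Hoxb8 and Hoxc6 in control mice. Hoxa2, Hoxa3, Hoxb8 and Hoxc6 were well above background on no Gr array, and Pknox2 on no KSL array. Each passed the filter only through the other cell type and so had to be higher there.

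The genes whose pattern over the 8 arrays was most like the mean of the 10 were Ak1, Parm1, Gsta4, Prrg4 and Pld6, by the root mean square distance between profiles centred on their own mean. Ak1, an adenylate kinase, lay 0.0719 log2 units from it and Pld6 0.273. Ak1 read -0.62 and -0.08 in Vav-Etv2 and 1.11 and 1.09 in control KSL cells, and between -3.13 and -2.41 in Gr cells. Of the 10 themselves, Hoxa9 lay closest to their mean (0.434) and Hoxb4 farthest (2.05). The mean profile was 0.61 and 1.22 in Vav-Etv2 KSL cells, 2.24 and 2.36 in control KSL cells, -1.52 and -1.92 in Vav-Etv2 Gr cells and -1.22 and -1.77 in Gr cells labelled control.

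ETV2 belongs to a family that binds a GGAA core, so the RefSeq promoters were read for it, as the 250 bases before each gene's start on build GRCm38.p6. The tables held 7 such windows for 6 of the genes (Hoxa5, Hoxa7, Hoxa9, Hoxa10 with 2 starts, Hoxb4 and Meis1). Capitals mark GGAA on either strand (TTCC where it lies on the other strand) and the longer ETS motif CCGGAAG, which contains the core. Shown are Meis1, the only one with the longer motif, Hoxa9, with the most cores, and Hoxa10, which had the largest KSL difference of these 6 genes, at its start nearer to Hoxa9. The windows are chr11:19018970-19019219, chr6:52227371-52227620 and chr6:52234940-52235189, all on the minus strand and written from 5′ to 3′.
Meis1: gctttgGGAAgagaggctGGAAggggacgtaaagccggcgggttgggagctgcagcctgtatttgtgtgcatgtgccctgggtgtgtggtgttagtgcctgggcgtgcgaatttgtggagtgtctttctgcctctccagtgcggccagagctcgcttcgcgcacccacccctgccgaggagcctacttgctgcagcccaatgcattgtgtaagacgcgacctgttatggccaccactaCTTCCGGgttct
Hoxa9: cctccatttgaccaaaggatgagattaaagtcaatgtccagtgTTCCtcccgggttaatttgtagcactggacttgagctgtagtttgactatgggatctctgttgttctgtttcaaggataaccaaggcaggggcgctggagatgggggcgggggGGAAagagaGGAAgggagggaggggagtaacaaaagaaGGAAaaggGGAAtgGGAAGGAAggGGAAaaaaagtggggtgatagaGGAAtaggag
Hoxa10: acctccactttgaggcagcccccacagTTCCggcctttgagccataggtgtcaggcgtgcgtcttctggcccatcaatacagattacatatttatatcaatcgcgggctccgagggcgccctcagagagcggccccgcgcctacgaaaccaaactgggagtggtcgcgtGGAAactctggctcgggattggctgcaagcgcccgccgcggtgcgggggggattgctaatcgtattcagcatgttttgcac
Meis1 held CCGGAAG once, on the other strand, starting 12 bases before the start, and 6.91% of 32851 promoters hold it at least once. GGAA occurred 9 times in Hoxa9, a number that 0.505% of promoters reach, 3 times in Meis1 and 2 times in the Hoxa10 window shown, with a median of 3 over all promoters, of which 93.4% hold it. None of the 7 windows held the HOX-PBX motif TGATNNAT or the MEIS motif TGACAG on either strand, which 7.68% and 15.9% of promoters do. These letters describe the windows and say nothing of binding. The transgene differences of Meis1 and Hoxa9 in KSL cells were -0.37 and -0.69, and that of Hoxa10 was -2.09.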

How the data were processed

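Total RNA of sorted cells was labelled with Cy3 after low-input amplification and hybridised to 1-colour Agilent arrays, per the labels' protocols. The deposited array files hold intensity values from Agilent Feature Extraction 10.7.3.1, per the file headers (10.7 in the submitters' processing notes), on annotation build mm9. The intensity used was the processed signal, which the software had background-subtracted and detrended, and which is not normalised between arrays. Other deposited columns mark each spot as an outlier, saturated or well above background. Its values being on a log2 scale, the deposited series table was compared with these signals: 99.7% of KSL and 99.8% of Gr values lay within 0.01 of the processed signals scaled per array and centred per probe within a cell type, so it served only within cell types, and its column medians ranged from -0.26 to 0.29.

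Spots marked as outliers were dropped, log2 values of a probe's spots averaged and each array's 75th percentile subtracted. Of 32354 probes well above background on at least 2 of 8 arrays, the one with the highest mean stood for its gene. The 4 groups were fitted together with limma 3.58.1 (lmFit, eBayes) in R 4.3.3, with Benjamini-Hochberg adjustment over 23231 features and calls under 0.05. With neither array of a group well above background, a fold is a bound, against the higher of the probe's own signal and the lowest signal still marked as well above background on that array. Intervals are at 95%, and the number of arrays limits the precision. The fit was tested on simulated data. Some list members and probe sequences are not reported here. The genes and lists were chosen with earlier results of these data known. Named from the lists were every called gene, the largest transgene difference in each fraction, and the 5 most similar genes. Alternatives covered scaling, background (normexp with an offset of 50 signal units), filter, floor, probe choice, the fit, the replicate block and each array left out. Same-numbered KSL replicates deviated with a correlation of 0.0681 and Gr replicates with 0.658.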

Additional observations from a re-analysis of the deposited data

How the results depend on the processing

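Under every alternative run, 0 of the 10 genes were called in the transgene comparisons and in the interaction by limma. For Hoxb5 in KSL cells the limma adjusted p was 0.0501 with quantile normalization and 0.0777 with median scaling. It was 0.865 with normexp, whose offset shrinks differences of dim probes. The count of features called between Vav-Etv2 and control KSL cells was 27 instead of 4 with median scaling, 50 with quantile normalization, 17 with normexp background, 11 with the floor and 0 with detection required on all 8 arrays. In Gr cells it went from 2 to 0 with normexp, with detection on all 8 arrays and with only the groups compared, and to 1 with no filter, each probe by itself, the intensity trend or the replicate block. In the interaction it went from 1 to 2 (median scaling), 5 (quantile), 6 (normexp) and 0 (no filter, detection on all arrays, floor, trend, replicate block). Genes called between the cell types numbered 4 of 10 with normexp or the floor in Vav-Etv2 mice, where Hoxa10 and Hoxb2 were lost, 5 of 10 with normexp in control mice, where Hoxb2, Hoxb5 and Hoxb6 were lost, and 3 of the 5 left in both genotypes with detection on all 8 arrays, where fewer genes were tested. With the replicate block, 12489 features were called between KSL and Gr controls instead of 8065 and 10818 instead of 5637 in Vav-Etv2 mice; the block changed no call of the 10 genes. The numbers were not taken to pair the samples, since same-numbered KSL arrays correlated at 0.0681; in Gr cells they correlated at 0.658, and there the number goes with sex.

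Hoxa9's interaction was -0.30 with normexp, and the other Hoxb3 probe gave 1.43 between Vav-Etv2 KSL and Gr cells; the cause was not tested. Leaving out 1 array at a time gave 0 to 37 features in KSL cells, 0 to 2 in Gr cells, 0 in the interaction, 2199 to 9391 between controls and 2244 to 7293 between Vav-Etv2 cells, with 6 to 8 and 5 to 6 of the 10 genes called. The genes below both controls in KSL cells numbered 7 to 10, and 7 under each scaling, the floor and the value table, counts added after seeing the data. KSL differences ranged from -1.14 to 0.04 for Hoxa5, -0.35 to 0.04 for Hoxa7 and -0.62 to 0.05 for Hoxb4. Gr differences ranged from -0.45 to 0.92 for Hoxa7, -0.95 to 0.16 for Hoxb3, -0.62 to 0.17 for Hoxb4, -0.77 to 0.49 for Hoxb6 and -0.58 to 0.83 for Meis1. Interactions ranged from -1.07 to 0.29 for Hoxa7, -0.39 to 0.73 for Hoxa9, -0.46 to 0.34 for Hoxb4 and -1.20 to 0.21 for Meis1. Hoxb5, Hoxb6, Hoxb2, Hoxb3, Hoxa10, Hoxa9 and Meis1 stayed lower in Vav-Etv2 KSL cells in each of these fits, and at -0.99 to -0.39 with normexp. With 2 arrays a group, and Hoxb5 and Hoxb6 below background in Vav-Etv2 KSL cells, only bounds can be given for these genes.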
